A study of Mus musculus with 68 samples.

Results

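Amino acid transporters of the plasma membrane were followed through a 4 h tunicamycin (TM) exposure of mouse embryonic fibroblasts (MEFs). TM stops the first step of N-linked glycan synthesis and is widely used to induce stress of the endoplasmic reticulum (ER). The set was chosen by name, with earlier results of these data known, so its counts beside all genes are a description. It holds 9 genes: Slc7a11, Slc7a5, Slc3a2, Slc7a1, Slc7a3, Slc1a4, Slc1a5, Slc38a2 and Slc6a9. Of these, 8 were measured, among 13197 genes in the founder strain tables and 12803 genes in the F1 tables, and Slc7a5 was not analysed here. The measured genes all passed the filter on low values in each genotype.

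RNA from 68 libraries was compared. The 40 founder libraries (18 control, 22 TM) came from 129S1Sv/ImJ (129), A/J (A), C57BL/6J (B6), CAST/EiJ (CAST), NOD/ShiLtJ (NOD), NZO/H1LtJ (NZO), PWK/PhJ (PWK) and WSB/EiJ (WSB) MEFs. The 28 F1 libraries (14 control, 14 TM) came from crosses of a B6 mother with a 129, CAST, NOD, NZO or WSB father, written x129, xCAST, xNOD, xNZO and xWSB. TM cells received 2 ug/ml TM in DMSO and control cells 0.1% DMSO. No age was given for the embryos. Each genotype was 1 preparation of MEFs, mixed from several female embryos of a single litter, so that genotype and preparation cannot be told apart, and p-values measure the spread between culture replicates and not between animals. Each group holds 2 or 3 libraries.

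Cells import amino acids through carriers with overlapping substrates. Slc7a11 (xCT) and Slc7a5 (LAT1) are light chains that reach the membrane bound to the heavy chain Slc3a2 (CD98), and xCT exchanges glutamate for cystine, the precursor of glutathione. Slc7a1 and Slc7a3 (CAT1 and CAT3) carry arginine and lysine, Slc1a4 and Slc1a5 (ASCT1 and ASCT2) exchange small neutral amino acids, Slc38a2 (SNAT2) is a sodium-coupled neutral amino acid carrier, and Slc6a9 (GlyT1) takes up glycine. ER stress activates the kinase PERK, which leads to translation of the transcription factor ATF4, a known activator of many amino acid transport and synthesis genes. ATF4 with a C/EBP partner binds C/EBP-ATF composite elements.

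RefSeq promoter windows (GRCm38.p6, 250 bases before to 50 after a transcript start) matched 6 of the 9 genes with 9 windows. Slc7a5, Slc1a5 and Slc7a3 have no entry. The core of the C/EBP-ATF composite element, TGATGNAA on either strand, was found in 2 of the 9 windows, those of Slc7a11 and Slc1a4, against 3.97% of all 32851 windows. The Slc7a11 window was 1 of 23 windows (0.07%) with 2 or more matches. The windows of Slc3a2, Slc6a9, Slc7a1 and Slc38a2 held no core. That of Slc3a2 (8713848 to 8714147) lies inside the gene model (8706882 to 8723369, minus strand) and not at its 5′ end. The stretches that hold a core, in Slc7a11 and Slc1a4, are shown 5′ to 3′. Capitals mark the element core, and positions count from the transcript start at 0.
Slc7a11 (chr3:50443633-50443699, minus strand, -86 to -20): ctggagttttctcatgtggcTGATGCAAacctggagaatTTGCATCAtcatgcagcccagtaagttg
Slc1a4 (chr11:20332710-20332737, minus strand, -24 to 3): cctccagcgtgcctcctgcgTTGCATCA
The pair of cores in Slc7a11 lies in opposite orientation. The ER stress response element (ERSE, both strands) was found in none of the 9 windows and in 0.119% of all windows. The antioxidant response core TGACNNNGC (both strands), part of the element that NRF2 binds, was found in 4 windows, of Slc6a9, Slc7a1 and Slc38a2, and in 12.4% of all windows. These are matches of letters, and no binding was measured.

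Levels are given as TMM-scaled reads, the deposited unit, which is not divided by gene length. The founder tables and the F1 tables were scaled separately, so levels are compared within each set. Libraries held 6442976 to 29528457 reads on genes. The lowest read count of any of these transporters was 26, among the 66 libraries whose whole reads were recovered. Libraries least like others of their own group were xNZO control 3, A TM 2, xWSB control 1, A control 1 and NZO TM 3, with mean Pearson correlations of log2 levels from 0.935 to 0.957. The 10 fibroblast markers were all measured, with a summed level of 6624 to 35460 per founder library and 4621 to 19997 per F1 library. Col1a1 and Col1a2 weigh most in this sum, with founder control medians of 8185 and 5036. Single markers can differ widely beneath it, as Thy1 ran from 2.18 to 654 over founder controls. Founder sums were 1.67 to 17.9 for endothelial, 7.24 to 64.6 for myeloid and 2.80 to 78.3 for epithelial markers. In the crosses the endothelial sums were 0.826 to 18.7 and the epithelial sums 0.502 to 26.5. The F1 myeloid sums started at 4.22 and stayed below 26.5. Of 5 endothelial markers, 4 were measured in the founders and 5 in the crosses. Of 9 myeloid markers these counts were 8 and 4, and of 5 epithelial markers 3 and 2. Founder and F1 sums are therefore not compared.

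TM raised most of these transporters in both sets. Averaged over the founder strains, 6 of 8 rose (limma, adjusted p below 0.01 and at least 1.5 fold), where 6.04% of all genes rose and 5.41% fell. Slc7a11 rose by 1.49 on the log2 scale (SE 0.15, adjusted p = 1.56e-09), Slc3a2 by 1.19 (SE 0.044, adjusted p = 1.29e-19), Slc7a3 by 1.01 (SE 0.066), Slc1a4 by 1.00 (SE 0.041), Slc6a9 by 0.99 (SE 0.083) and Slc7a1 by 0.59 (SE 0.098). Slc7a1 lay at the fold threshold, at 1.51 fold, and fell below it when any of 17 of the 40 founder libraries was left out (0.55 to 0.63 over all 40) and with median-of-ratios scaling (0.58). Slc38a2 passed the p threshold with a smaller change of 0.55 (SE 0.070), and Slc1a5 had a negative value, -0.36 (SE 0.084, adjusted p = 0.000749). The median over the 8 genes was 1.00, against -0.037 over all genes.

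Averaged over the F1 crosses, 5 of 8 rose, where 4.95% of all genes rose and 5.54% fell. Slc7a11 rose by 1.24 (SE 0.10), Slc3a2 by 1.14 (SE 0.055), Slc1a4 by 0.86 (SE 0.052), Slc7a3 by 0.83 (SE 0.072) and Slc6a9 by 0.68 (SE 0.064). Slc7a1 (0.43, SE 0.090) and Slc38a2 (0.39, SE 0.066) passed the p threshold below 1.5 fold, and Slc1a5 was at -0.40 (SE 0.13, adjusted p = 0.0119).

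**Figure D1:**
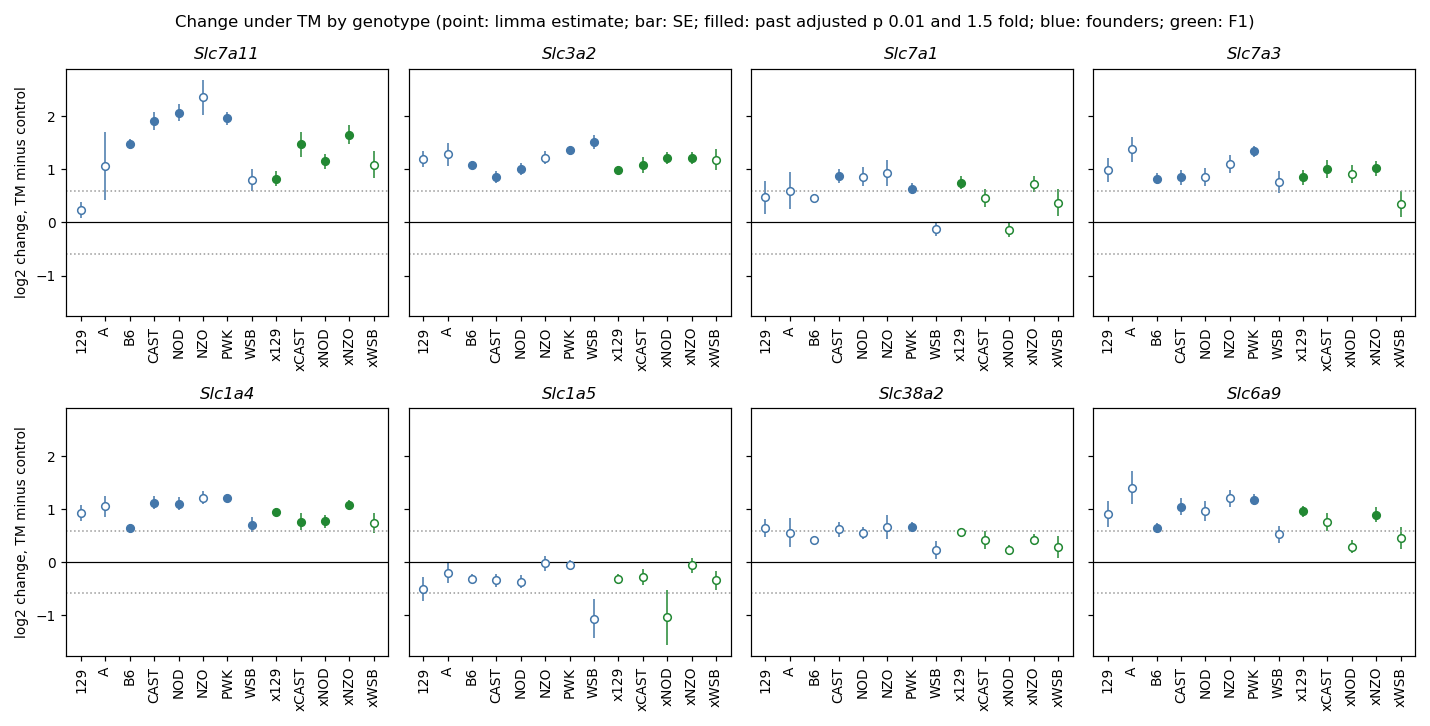
Log2 change (TM minus control, limma estimate with its SE as a bar) of each transporter gene in 8 founder strains (blue) and 5 F1 crosses (green). Filled points passed adjusted p 0.01 and 1.5 fold, and dotted lines mark 1.5 fold. Slc3a2 and Slc1a4 lie above 0 in each genotype, Slc1a5 below, and Slc7a11 ranges from 0.24 in 129 to 2.36 in NZO.

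Within single genotypes, 23 of 64 gene and strain pairs rose and 0 fell, against 2.4% and 1.55% of all such pairs. In the F1 crosses 18 of 40 rose and 0 fell, against 2.54% and 1.47%. By edgeR 22 founder and 18 F1 pairs rose and 0 fell, where 2.12% and 2.74% of all such pairs rose. Negative changes with an unadjusted limma p below 0.05 were found in 4 founder pairs and 1 F1 pair, all of Slc1a5. Every TM library lay above every control library in 51 of 64 founder pairs and 32 of 40 F1 pairs, where 22.5% and 19.4% of all pairs did. The calls lay in 5 of 8 founder strains, with 7 of 8 genes in PWK (6.36% of all genes rose there), 6 in CAST (2.54%), 5 in B6 (5.04%), 3 in NOD (1.45%) and 2 in WSB (2.85%). No transporter passed in 129, A or NZO, where 0.315%, 0.346% and 0.32% of all genes rose, although the median log2 changes there were 0.78, 1.06 and 1.16. With same-numbered libraries taken as blocks, 6 genes rose in 129 (6.35% of all genes), 3 in NZO (1.19%) and 0 in A (0.165%). Without NZO TM 3 alone, 7 of 8 genes rose in NZO, where 10.1% of all genes then rose, and the founder count became 30. In the F1 crosses the counts were 6 in x129 (4.88%), 4 in xCAST (2.52%), 3 in xNOD (3.69%), 5 in xNZO (1.44%) and 0 in xWSB (0.185%). By edgeR the count was also 0 in 129, A, NZO and xWSB, where 5, 4, 7 and 4 genes had a positive change with an unadjusted limma p below 0.05. Without xNOD control 3 the 3 calls in xNOD, of Slc3a2, Slc7a11 and Slc1a4, were lost, with adjusted p of 0.0246, 0.0261 and 0.0367, and 0.153% of all genes rose. This was not particular to that library. The F1 count of 18 became 15 without xNOD control 1, without xNOD control 2 or without xNOD control 3, so the xNOD calls were lost each time. The calls in xNZO also depended on single libraries. Without xNZO TM 1 or xNZO TM 3 the F1 count was 13, so that all 5 xNZO calls were lost. It was 14 without xNZO TM 2 or xNZO control 2, 16 without xNZO control 1 and 18 without xNZO control 3. Shares of all genes are not given for these fits. A gene that missed the threshold in one strain and passed it in another was not thereby shown to respond differently.

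**Figure D2:**
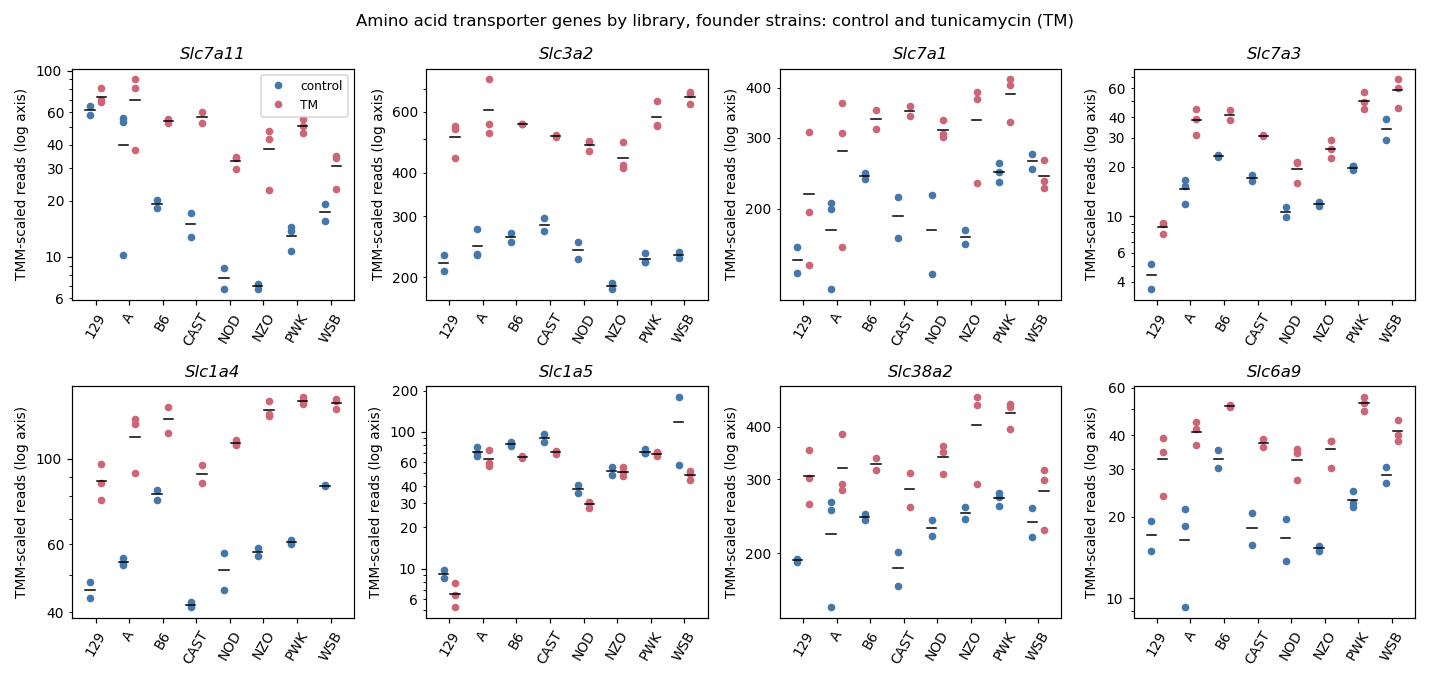
TMM-scaled reads (log axis) of the 8 measured transporter genes in each founder library, control in blue and TM in red, with group means as black bars. Slc7a11 controls are highest in 129 and in 2 of 3 A libraries, Slc1a5 is lowest in 129, and 1 WSB control library stands above all others for Slc1a5.

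Slc7a11 lies on chromosome 3 (49892526 to 50443614, minus strand, GENCODE M21 on GRCm38) and overlaps the antisense gene Gm37854 and several pseudogenes, whose reads the deposited values may share. Its control level varied more than its TM level. Control libraries were at 64.9 and 57.9 in 129, at 10.2, 55.9 and 53.1 in A, at 20.2 and 18.3 in B6, and at 15.6 and 19.3 in WSB. They were at 12.8 and 17.1 in CAST, 10.7, 13.8 and 14.5 in PWK, 6.69 and 8.77 in NOD, and 7.18 and 6.71 in NZO. The 129 libraries and A control 2 and 3 stood above all other controls, and A control 1 stood with the other strains. The highest strain mean (129, 61.4) was 8.84 times the lowest (NZO, 6.95), and the control level differed between strains (limma moderated F test, adjusted p = 0.00222, a test that 35.8% of all genes passed). Without 129 control 2 or 129 control 3 this adjusted p was 0.0131 or 0.0108. Of the 7 neighbouring pairs in the order of strain means, NOD and PWK, and A and 129, did not overlap. Pairs of this kind were not counted over all genes, here or for the other transporters.

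Under TM, Slc7a11 was at 69.8, 80.7 and 67.7 in 129, 80.9, 90.3 and 37.8 in A, 55.4 and 52.7 in B6, and 60.2 and 52.3 in CAST. It was at 33.9, 34.3 and 29.6 in NOD, 43.2, 47.6 and 22.9 in NZO, 46.5, 54.9 and 50.6 in PWK, and 35.0, 34.0 and 23.3 in WSB. The strain means thus spanned 2.36 fold, and no neighbouring pair of strains was free of overlap. TM libraries lay above the controls of their own strain in 7 of 8 strains, the exception being A. Slc7a11 rose in B6 by 1.48 (SE 0.10), CAST by 1.91 (SE 0.16), NOD by 2.07 (SE 0.16) and PWK by 1.96 (SE 0.13). The change was 2.36 (SE 0.33, adjusted p = 0.0282) in NZO, 0.80 (SE 0.21, adjusted p = 0.0291) in WSB, 1.06 (SE 0.64) in A and 0.24 (SE 0.15) in 129. Without A control 1 the A value was 0.26.

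Whether the size of the response depended on the strain was tested in 2 ways. In the test on log2(TM/median control) of each TM library, which treats the control median as known without error and can therefore call too many genes, Slc7a11 differed between strains (adjusted p = 0.000213), as did Slc1a5 (adjusted p = 0.000296). This test called 3.46% of all genes. A model that also carries the error of the controls (strain by treatment interaction, which called 0.174% of all genes) passed 0 of the 8 genes by limma. The unadjusted interaction p was below 0.05 for Slc1a4, Slc7a11 and Slc3a2 (0.0078, 0.017 and 0.032). The edgeR quasi-likelihood test also passed 0 of 8. For Slc7a11 the adjusted interaction p was 0.842 with all libraries and 0.00237 without A control 1.

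In the F1 crosses Slc7a11 controls spanned 4.86 to 18.7 and TM libraries 18.7 to 38.9. Mean control levels ran from 6.25 in xNZO to 17.5 in x129, a 2.80-fold range that passed the F test (adjusted p = 0.00185, 21.4% of all genes), against a 1.60-fold range under TM. Slc7a11 rose in 4 of 5 crosses, by 0.82 (SE 0.14) in x129, 1.47 (SE 0.24) in xCAST, 1.15 (SE 0.14) in xNOD and 1.66 (SE 0.17) in xNZO. In xWSB the change was 1.09 (SE 0.25, adjusted p = 0.124), with each TM library above each control. The cross by treatment interaction called 0.0547% of all genes and 0 of these 8, by limma and by edgeR, with unadjusted limma p below 0.05 for Slc6a9, Slc7a3 and Slc7a1 (0.013, 0.033 and 0.039).

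Slc3a2, the shared heavy chain (chromosome 19, 8706882 to 8723369, minus strand), had fitted fold changes of 1.81 to 2.86 over the founder strains and 1.98 to 2.34 over the crosses. Founder control libraries lay between 185 and 296 with a median of 232, and TM libraries between 413 and 746 with a median of 541. The lowest TM library was above the highest control library across all strains. It rose in 5 of 8 strains, from 0.85 (SE 0.12) in CAST to 1.51 (SE 0.13) in WSB, and had changes of 1.20, 1.29 and 1.22 in 129, A and NZO with adjusted p of 0.0185, 0.034 and 0.0134. In the F1 crosses controls lay between 142 and 286 and TM libraries between 377 and 578, again without overlap. Slc3a2 rose in 4 of 5 crosses, by 0.99 to 1.22, with 1.18 (SE 0.19, adjusted p = 0.045) in xWSB. Per kilobase of exon sequence it had the highest mean control level of the measured transporters, 67.2 TMM-scaled reads per kb in the founders, against 26.1 for Slc38a2, 17.6 for Slc7a1, 16.1 for Slc1a5, 15.1 for Slc1a4, 4.50 for Slc7a3, 4.06 for Slc6a9 and 1.65 for Slc7a11. Its light chain Slc7a11 thus had the lowest mean level per kb over all founder controls. The Slc7a11 strain means ran from 6.95 TMM-scaled reads in NZO to 61.4 in 129, and levels per kb were not ranked within single strains. Exon sequence was the union of all annotated exons, 13922 bases for Slc7a11.

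Slc7a1 and Slc7a3, the carriers of cationic amino acids, differed in level, at 17.6 and 4.50 TMM-scaled reads per kb in founder controls. Slc7a1 (chromosome 5, 148327410 to 148399904, minus strand) ranged from 126 to 274 in founder controls and from 145 to 420 under TM. It rose in CAST by 0.88 (SE 0.14) and in PWK by 0.64 (SE 0.10). In WSB the controls were at 251 and 274 and the TM libraries at 225, 264 and 234, an overlap, with a change of -0.13 (SE 0.14). The WSB value was thus the lowest of the strains, but neither strain test passed for Slc7a1 (adjusted p = 0.17 on the median control and 1 for the interaction). In the F1 crosses it rose in x129 by 0.75 (SE 0.13) and was -0.13 (SE 0.13) in xNOD, where controls at 149, 157 and 165 overlapped TM libraries at 125 and 163.

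Slc7a3 lies on the X chromosome (101079210 to 101086020, minus strand), and its level differed between genotypes. Founder controls were at 5.17 and 3.60 in 129, 9.94 and 11.4 in NOD, 11.5 and 12.3 in NZO, 11.9, 16.8 and 15.4 in A, and 17.8 and 16.5 in CAST. They were at 20.2, 20.2 and 19.1 in PWK, 23.8 and 22.9 in B6, and 29.2 and 39.1 in WSB. In the order of the means of these same libraries, 5 of 7 neighbouring pairs of strains did not overlap. The WSB mean was 7.79 times that of 129 (moderated F test, adjusted p = 4.28e-07). Under TM the range was 6.73 fold between the same strains, and TM libraries lay above controls in all 8. Slc7a3 rose in B6 by 0.83 (SE 0.10), CAST by 0.85 (SE 0.13) and PWK by 1.34 (SE 0.11).

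Among the crosses the order of Slc7a3 was different. The xWSB cross was lowest, with controls at 3.01, 2.20 and 3.26 and TM libraries at 3.44, 3.45 and 3.83, from 26 to 61 reads each. The other crosses had controls between 5.73 and 12.7 and TM libraries between 11.3 and 24.1, with no overlap with xWSB. Control levels differed between crosses (adjusted p = 6.56e-06). Both parents of xWSB, B6 and WSB, were the strains with the highest founder controls, but the sets were scaled separately and the difference was not tested. Slc7a3 rose in x129 by 0.85 (SE 0.14), in xCAST by 1.01 (SE 0.17) and in xNZO by 1.02 (SE 0.14), with 0.91 (SE 0.16, adjusted p = 0.0109) in xNOD and 0.35 (SE 0.25) in xWSB.

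**Figure D3:**
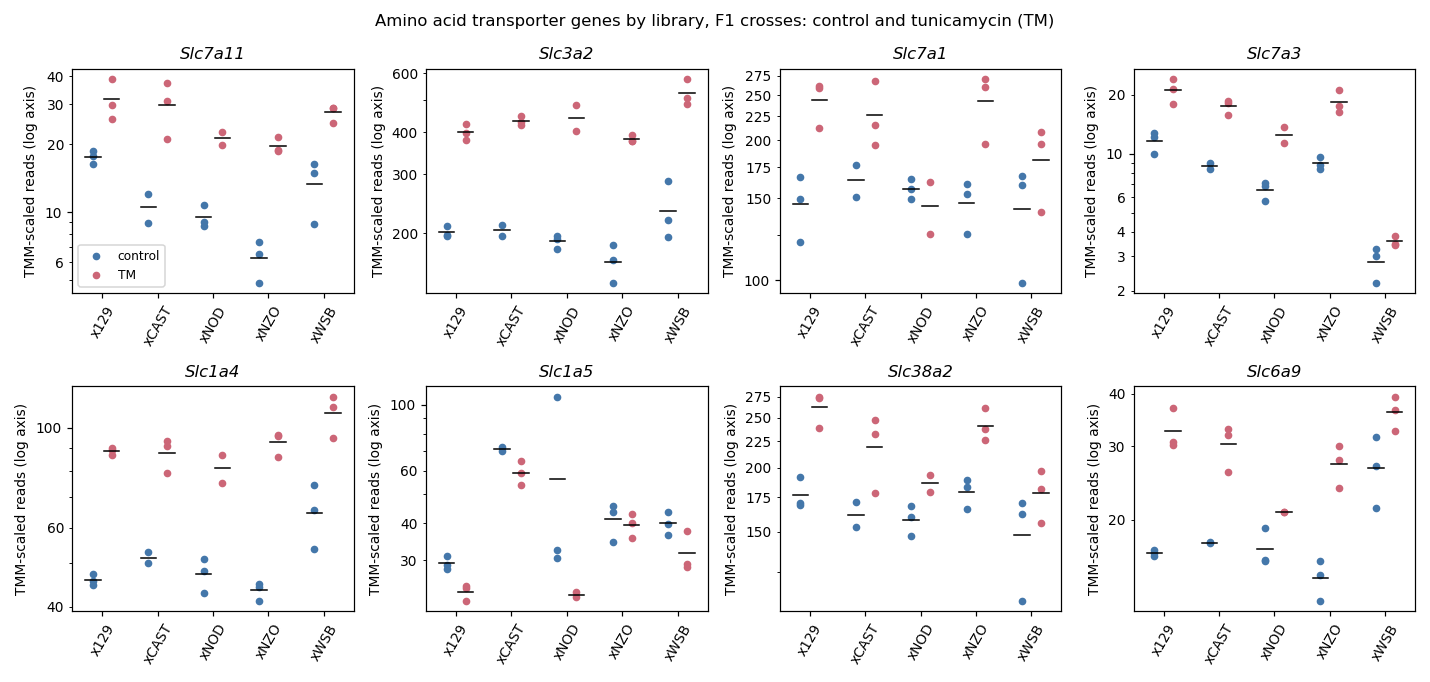
TMM-scaled reads (log axis) of the 8 measured transporter genes in each F1 library, control in blue and TM in red, with group means as black bars. Slc7a3 is lowest in xWSB in both treatments, and 1 xNOD control library stands above the other controls for Slc1a5 at 107.

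Slc1a4 and Slc1a5, the neutral amino acid exchangers, had changes of opposite sign. Slc1a4 (chromosome 11, 20302180 to 20332713, minus strand) rose in B6 (0.64, SE 0.086), CAST (1.13, SE 0.12), NOD (1.11, SE 0.12), PWK (1.22, SE 0.082) and WSB (0.71, SE 0.13), and its TM libraries lay above controls in all 8 strains. Controls ranged from 41.2 to 85.7 and TM libraries from 78.4 to 145. B6 and WSB, with the highest control means (80.8 ± 3.43 and 85.3 ± 0.63, SD, n = 2 each), had the 2 smallest changes, values that share their control libraries. Control levels differed between strains (adjusted p = 1.77e-05), and the response missed the threshold in both strain tests (adjusted p = 0.0212 and 0.57), the first of which was 0.00237 without A TM 2. Over crosses the control level test gave 0.0109, and 0.000539 without xWSB control 1. Slc1a4 rose in 4 of 5 crosses, by 0.77 in xCAST and xNOD, 0.95 in x129 and 1.09 in xNZO, with 0.74 (SE 0.19) in xWSB. Without 1 of the WSB or xNOD controls the calls in those genotypes were lost at changes near the same size, 0.71 to 0.72 in WSB (adjusted p = 0.0456 and 0.0624) and 0.70 without xNOD control 3 (adjusted p = 0.0367).

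Slc1a5 (chromosome 7, 16781340 to 16798274, plus strand) had a negative change in each of the 13 genotypes. It passed the 1.5-fold and p thresholds in none of them by limma with a separate fit per genotype. In NZO and xNZO the changes of -0.016 and -0.057 turned positive when single libraries were left out, and in NZO also with edgeR. The unadjusted p was below 0.05 in B6, WSB, NOD, CAST and x129 (0.0016, 0.016, 0.018, 0.022 and 0.0073). TM libraries lay below controls in 5 of 8 strains and in 3 of 5 crosses. These were all such pairs among the 8 genes, where 23.7% and 20.3% of all gene and genotype pairs did so. The largest shifts, -1.06 (SE 0.37) in WSB and -1.04 (SE 0.52) in xNOD, each rested on 1 control library. WSB control 2 was at 180 and WSB control 3 at 56.9, against 44.7, 49.1 and 52.0 under TM. Control 3 of xNOD was at 107 and controls 1 and 2 at 32.4 and 30.6, against 22.6 and 23.5 under TM. Without these libraries the changes were -0.23 in WSB and -0.45 in xNOD, and the averages were -0.25 (adjusted p = 0.000102) over founders and -0.29 (adjusted p = 0.00037) over crosses.

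The same 2 libraries had the highest summed endothelial markers of their sets, 17.9 for WSB control 2 against a median of 4.72, and 18.7 for xNOD control 3 against a median of 2.53. In xNOD control 3 the myeloid sum (against 14.7 and 10.1 in the other xNOD controls) and the epithelial sum (26.5, median 3.59) were also the highest of the set, while the fibroblast sum (9304, median 10558) was not. WSB control 2 was also above WSB control 3 in the myeloid sum (30.8 against 8.23) and the epithelial sum (46.3 against 4.85), with fibroblast sums of 21357 and 20142. The part of these values in the Slc1a5 result was not tested. In bulk RNA, more cells of a type and more RNA per cell cannot be told apart.

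The strain effect of Slc1a5 on log2(TM/median control) had an adjusted p of 0.15 without WSB control 2. The interaction adjusted p was 1 with all libraries and 4.79e-05 without WSB control 3, the fit that leaves the high library as the only WSB control. The level of Slc1a5, in contrast, was lowest in 129 with or without these libraries. Its 129 controls were at 9.70 and 8.60 and its 129 TM libraries at 5.21, 7.80 and 6.44. Libraries of the other founder strains lay between 27.7 and 180. Control levels differed between strains (adjusted p = 8.56e-06), and 4 of 7 neighbouring pairs did not overlap. In x129 the controls were at 28.9, 28.1 and 31.1, the lowest mean of the crosses but overlapping xNOD, and in xCAST at 72.5 and 70.2. The F test over crosses gave an adjusted p of 0.154, and of 0.000118 without xNOD control 3.

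Slc38a2 (chromosome 15, 96687392 to 96699730, minus strand) was an abundant transporter with a small change. Founder controls lay between 149 and 278 and TM libraries between 227 and 470. Changes ranged from 0.23 (SE 0.17) in WSB to 0.67 (SE 0.086) in PWK, and TM libraries lay above controls in 7 of 8 strains. It rose in PWK. In B6, the change of 0.42 (adjusted p = 0.000299) was below 1.5 fold. In the crosses it ranged from 0.24 in xNOD to 0.56 in x129, with 0 of 5 called.

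Slc6a9 (chromosome 4, 117834506 to 117875198, plus strand) overlaps Ccdc24 and B4galt2 on the other strand, and the sources used here do not state whether counting used strand. Founder controls lay between 9.25 and 35.3 and TM libraries between 23.8 and 55.5, with no overlap within any strain. The lowest control was A control 1, at 9.25 against 21.4 and 18.5 in the other A controls. Slc6a9 rose in B6 by 0.64 (SE 0.098), CAST by 1.05 (SE 0.16) and PWK by 1.18 (SE 0.10), and had its largest value in A, 1.41 (SE 0.32, adjusted p = 0.0918). The A value ran from 1.05 to 1.65 when 1 A library was left out, and the low end is under the NZO value of 1.21 (SE 0.16). In the crosses it rose in x129 (0.96, SE 0.10) and xNZO (0.90, SE 0.14), and was 0.30 (SE 0.12) in xNOD. The xWSB controls were the highest, at 26.9, 31.6 and 21.3 (F test over crosses, adjusted p = 0.00329, 0.0177 without xWSB control 2).

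Control levels passed the F test over strains for 4 of 8 genes (Slc7a3, Slc1a5, Slc1a4 and Slc7a11), against 35.8% of all genes, and over crosses for 3 of 8 (Slc7a3, Slc7a11 and Slc6a9), against 21.4%. A control 1 decided the first count. Without it all 8 genes passed, where 48.1% of all genes did, with adjusted p of 0.00134 for Slc3a2, 0.001 for Slc38a2, 0.000457 for Slc6a9 and 0.00195 for Slc7a1. That library was the lowest founder control for Slc7a1 (126), Slc38a2 (149) and Slc6a9 (9.25), and it had the highest fibroblast marker sum of the set, 35460. The part of that difference in these results was not tested.

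Other amino acid transporters were counted in the same way. Of 43 further genes from the SLC1, SLC3, SLC6, SLC7, SLC16, SLC36, SLC38 and SLC43 families, 28 were measured in the founders, of which 2 rose and 3 fell on average, where 6.04% of all genes rose and 5.41% fell, with a median of -0.24 against -0.037 over all genes. Slc7a2, another cationic carrier, rose by 1.19 (SE 0.19) from a median of 2.64 to 4.42, and Slc43a1 rose by 0.61 (SE 0.11). The glutamate carrier Slc1a3 fell by 0.95 (SE 0.17), Slc7a14 fell by 0.80 (SE 0.23) and the lysosomal carrier Slc36a1 fell by 0.60 (SE 0.13). Slc6a7, with a control median of only 0.47, was at -0.64 (SE 0.21, adjusted p = 0.0116). In the crosses 26 were measured, of which 1 rose and 4 fell, where 4.95% and 5.54% of all genes did, with a median of -0.29. There Slc7a2 rose by 0.61 (SE 0.18), and Slc36a4, Slc7a4, Slc36a1 and Slc6a17 fell, at -0.92, -0.90, -0.74 and -0.61. Levels of Slc7a4 were low, with medians of 0.92 in control and 0.41 in TM libraries. Within single crosses, Slc7a2 was raised in 1 of 5 and Slc6a17 lowered in 1 of 5. Slc36a4 and Slc36a1 were lowered in 0 of 5, and Slc7a4 in 0 of 4.

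Among 16 PERK and ATF4 pathway genes, 8 rose and 0 fell in the founders (median 0.71), and 9 rose and 0 fell in the crosses (median 0.79). Of all genes, 6.04% rose and 5.41% fell in the founders (median -0.037), and 4.95% and 5.54% did in the crosses (median -0.040). Ddit3 (CHOP) rose by 3.90 (SE 0.091) in the founders, Trib3 by 2.75 (SE 0.062), Chac1, which degrades glutathione, by 2.71 (SE 0.069), and Ppp1r15a (GADD34) by 1.83 (SE 0.045). Of 10 NRF2 and glutathione genes, 0 passed in either direction on average over the founders or over the crosses by limma. The shares of all genes are those given above, and edgeR was not run on that list. Within single genotypes, Nfe2l2 was raised and Keap1 lowered in 1 strain, PWK. At an unadjusted p below 0.05, 3 had a positive and 5 a negative average change in the founders, and 1 and 6 in the crosses, where 59.1% and 54.6% of all genes had such a p. The largest founder changes of that list were -0.56 (SE 0.050) for Keap1 and 0.55 (SE 0.059) for Nfe2l2, which encodes NRF2, both past the p threshold but under 1.5 fold. Glutathione reductase, Gsr, was at -0.36 (SE 0.050).

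**Figure D4:**
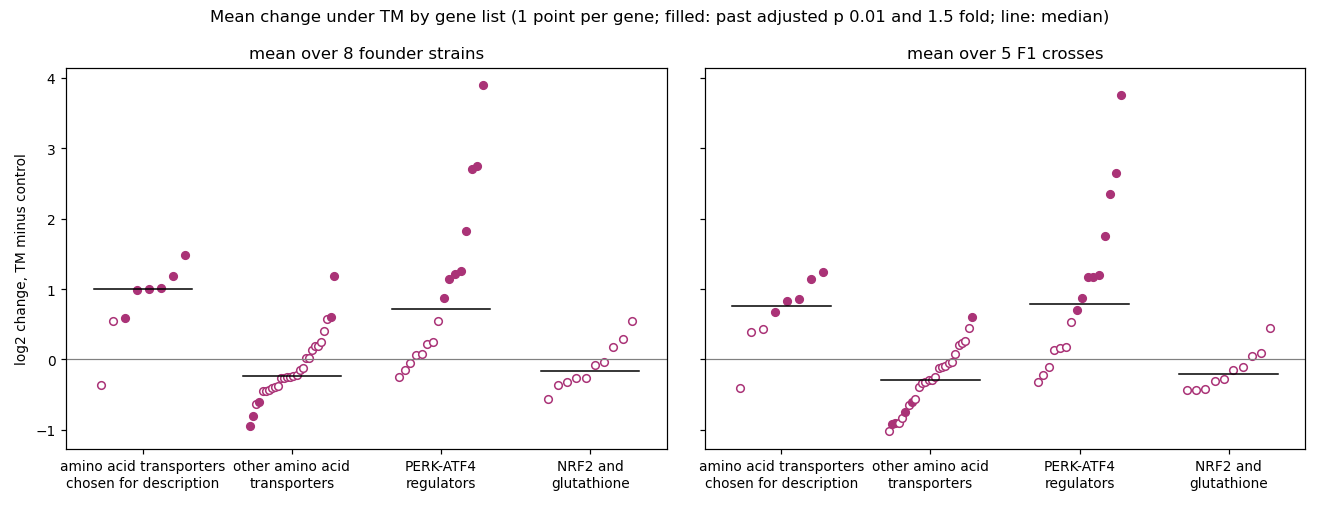
Mean log2 change (TM minus control) of each gene by list, over 8 founder strains (left) and 5 F1 crosses (right). Filled points passed adjusted p 0.01 and 1.5 fold and lines are list medians, 1.00 for the chosen transporters, -0.24 for other amino acid transporters, 0.71 for PERK and ATF4 genes and -0.17 for NRF2 and glutathione genes in the founders.

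The genes whose log2 level was most like each transporter over the 40 founder libraries were found among 11238 genes. These libraries share strains and treatment, and Pearson's r is given as a description. Slc3a2 was most like Atf4 (r = 0.98) and Rabggtb (0.98), Slc1a4 most like Cass4 (0.95) and Atf3 (0.94), and Slc6a9 most like Wars (0.93), a tryptophan tRNA synthetase, and Otub2 (0.93). Slc7a1 was most like Creb5 (0.95) and Iars (0.94), an isoleucine tRNA synthetase, Slc38a2 like Fndc3a (0.93) and Ccnt1 (0.92), and Slc7a3 like Mtrex (0.86) and Shmt2 (0.85), a mitochondrial serine and glycine enzyme. Slc7a11 had lower values, with Ch25h (0.80) and Arntl (0.80). The nearest genes to Slc1a5 were Itih2 (0.90) and Aqp1 (0.87).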

How the data were processed

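RNA-seq libraries (single-end, 100 bp) of control and TM-treated MEFs were analysed. Per the study's methods and the submitters' processing notes, the authors aligned reads with TopHat 1.4.1 to strain-specific genomes (mm10, GRCm38) allowing 3 mismatches, and scaled counts by TMM in edgeR. They left out libraries that stood apart from their treatment in principal components and scaled the rest again, which can narrow the spread within groups. The deposited values, called FPKM, were a signal of TMM-scaled reads per gene: values in a library are whole multiples of 1 step (tolerance 0.02 reads), without division by length. Whole reads were recovered for 66 of 68 libraries. Lines not assigned to a gene (3 per F1 table, 15.5 to 24.1% of its total) were left out.

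Values were tested with limma 3.58.1 (trend) on log2(value + 0.1), for genes at 0.5 or more in at least 2 libraries. Fold changes are on this scale, which understates the change of low genes. Benjamini-Hochberg adjustment ran over all genes. Raised or lowered means adjusted p below 0.01 and at least 1.5 fold; F tests used adjusted p below 0.01. The design assumed FPKM; the tests kept are those planned for a log scale. edgeR 4.0.16 on recovered reads, other pseudocounts, filters, scalings and thresholds, the replicate block and each left-out library were alternatives. The tests were also run on simulated founder counts with known changes, the same dispersion for all genes and libraries, and no outlying library. That check does not cover the unequal spread of these genotypes (median residual SD 0.10 in B6 and 0.35 in A) or single outlying libraries. Genes, lists and alternatives were chosen with earlier results of these data known. Named genes are the 9 transporters, the 2 to 4 of each list with the largest absolute founder change, and the 2 genes most like each transporter. Slc43a1, Slc36a1, Slc36a4, Slc7a4 and Slc6a17 lie outside this rule and were named, after their values were seen, because they passed the test. Gene models are from GENCODE M21.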

Additional observations from a re-analysis of the deposited data

Results flagged for a closer look

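Slc7a11 and Slc1a5 stood out because their response differed between founder strains in a test of that difference, the moderated F test on log2(TM/median control), with adjusted p of 0.000213 and 0.000296. For Slc7a11 the strain with the smallest change, 129 at 0.24, was the one with the highest control level, 61.4 on average, and its TM level, 72.7, was also the highest. The control median enters both the change and the control level, so the 2 are not independent measures. For Slc1a5 the difference rested on WSB control 2, and the adjusted p was 0.15 without it. Neither gene passed the interaction test with all libraries (adjusted p = 0.842 for Slc7a11 and 1 for Slc1a5).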

How the results depend on the processing

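Where given, shares of all genes under the same setting stand in brackets. Without the variance trend 7 founder pairs of 64 (0.801%) and 6 cross pairs of 40 (1.02%) were raised. At 2 fold 14 founder pairs (1.13%), 9 cross pairs (1.06%) and 2 genes averaged over crosses (1.24%) were raised. At 5% FDR 38 founder pairs were raised (4.3%), 5 genes passed the strain test on the median control (8.74%) and 7 passed the founder control level test (52%). With 1 limma fit over the set 1 founder pair was lowered, Slc1a5 in WSB. With edgeR the Slc1a5 change in NZO was 0.0055. Leaving out 1 library, founder pairs raised ranged from 21 to 30 and lowered from 0 to 1, cross pairs raised from 13 to 19, founder averages from 5 to 6, the median control test from 1 to 3, the founder interaction from 0 to 1, founder control levels from 3 to 8 and cross control levels from 2 to 4. Slc1a5 then ranged from -0.11 to 0.078 in NZO (positive without NZO TM 3, 0.040, or NZO control 2) and from -0.18 to 0.023 in xNZO (positive without xNZO TM 2, 0.017, or xNZO control 2), and Slc7a1 from -0.32 to 0.053 in xNOD. Replicate numbers were not taken to pair the samples, as no source says what they share and correlations of same-numbered deviations ran from -0.64 to 0.49. All correlations were over 0.1 in xWSB (3 pairs, 0.17 to 0.33), 129 (2 pairs, 0.13 and 0.49) and NZO (2 pairs, 0.30 and 0.32). In xWSB 0 transporters were raised with the block, as without it (0.0806%). The replicate block gave 33 founder (3.14%) and 14 cross pairs (2.08%), with 6 genes raised in 129 (6.35%), 3 in NZO (1.19%) and 0 in A (0.165%). Without the block 0 genes were raised in 129, NZO and A, so the result in 129 and NZO depended on this choice. Low levels of Slc7a3 in xWSB (26 to 61 reads) limit its precision.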

Other observations

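Slc7a10, a neutral amino acid carrier (Asc-1) not among the described genes, was singled out after its values were seen. It was at 14.3 in WSB control 2, against at most 1.10 in the other founder libraries, and at 9.19 in xNOD control 3, against at most 3.35 in the other F1 libraries. These are the 2 libraries with the highest Slc1a5 of their sets. Slc1a3 was also highest in WSB control 2 (10.3, against 1.32 in WSB control 3) and second highest in xNOD control 3 (4.49, against 0.36 and 0.72 in the other xNOD controls).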
